A study of Mus musculus with 12 samples.

Results

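Transcripts of the 7 fatty acid elongases, *Elovl1* to *Elovl7*, were followed in mouse adipocytes. The cells had been grown out of the stromal vascular fraction (SVF) of subcutaneous fat, which holds the preadipocytes, and made into adipocytes in the dish. The members were taken by gene symbol, with earlier results of these data known, and all 7 were found among the 55573 genes counted. Cells came from C57BL/6 mice that were wild-type (WT) for PPARγ or homozygous for an exchange of the threonine T166 in its DNA-binding domain, to alanine in TA and to aspartate in TD, which the study made to mimic the dephosphorylated and the phosphorylated state. Both exchanges are global, so they are present in every cell type of the mouse and of the culture, and no tissue-specific Cre was involved. Each genotype had 4 libraries from cells harvested on day 8, after 4 days of induction in 10% serum with 850 nM insulin, 1 nM triiodothyronine, 0.5 mM IBMX, 125 nM indomethacin and dexamethasone, followed by serum, insulin and triiodothyronine. The labels give all 3 genotypes the same treatment. Neither the age of the mice nor whether the 4 libraries came from separate mice or separate dishes was given, so the p-values measure only the spread between these libraries, which may be technical. A changed codon in *Pparg* cannot be seen in counts per gene, so the genotype labels could not be checked.

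Elongases catalyse the first and rate-setting step of the cycle in the endoplasmic reticulum that lengthens fatty acids by a pair of carbons taken from malonyl-CoA. The keto group made in this condensation is then reduced, the product loses water, and a final reduction yields the longer acyl-CoA. The members differ in substrate. *Elovl6* lengthens palmitate towards stearate, *Elovl1*, *Elovl3* and *Elovl7* act on longer saturated and monounsaturated chains, *Elovl2* and *Elovl5* act on polyunsaturated chains, and *Elovl4* makes the ultra-long chains of retina and skin. In fat, *Elovl3* is known as a gene of brown adipocytes that is induced by cold, and *Elovl6* as a lipogenic gene driven by SREBP-1 and ChREBP.

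The family shares a histidine box in its catalytic core, and a stretch of coding sequence around it is shown for each member because it is what makes the 7 genes one family and shows how far they differ at the letters that reads are matched to. The 39 bases below, taken 5′ to 3′ on the coding strand from GENCODE transcripts on GRCm38, have the 3 histidine codons of the box in capitals.
Elovl1: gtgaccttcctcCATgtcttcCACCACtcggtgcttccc
Elovl2: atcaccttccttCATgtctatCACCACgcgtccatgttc
Elovl3: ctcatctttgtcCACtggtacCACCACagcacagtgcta
Elovl4: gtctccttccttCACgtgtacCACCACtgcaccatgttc
Elovl5: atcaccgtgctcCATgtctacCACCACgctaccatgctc
Elovl6: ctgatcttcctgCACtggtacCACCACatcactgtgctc
Elovl7: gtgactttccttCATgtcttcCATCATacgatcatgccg
Each protein held the box once. *Elovl3* and *Elovl6* alone had the codon tgg after the first histidine codon, where the others had gtc or gtg, and their proteins were identical at 46.2% of 260 aligned residues. The closest pairs were *Elovl2* with *Elovl5* at 58.7% and *Elovl1* with *Elovl7* at 57.1%, and the most distant was *Elovl5* with *Elovl6* at 29.8%. The longest run of bases that whole transcripts of any 2 members shared exactly was 23, between *Elovl2* and *Elovl5*, so the reads of one member were not near-copies of those of another. The box lay at chr4:118431442-118431480 in exon 6 for *Elovl1*, at chr19:46134410-46134448 in exon 4 for *Elovl3*, at chr9:77976838-77976876 in exon 5 for *Elovl5* and at chr3:129633095-129633133 in exon 5 for *Elovl6*, all on the plus strand. On the minus strand it lay at chr13:41189989-41190027 in exon 5 for *Elovl2* and at chr9:83785078-83785116 in exon 4 for *Elovl4*. For *Elovl7* it lay at chr13:108274319-108274357 in exon 6 on the plus strand.

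All 7 are protein-coding genes on GRCm38. *Elovl6* (ENSMUSG00000041220) spans chr3:129532355-129638495, *Elovl1* (ENSMUSG00000006390) chr4:118428093-118432953, *Elovl5* (ENSMUSG00000032349) chr9:77917364-77984519 and *Elovl3* (ENSMUSG00000038754) chr19:46131897-46135694. *Elovl4* (ENSMUSG00000032262) spans chr9:83778692-83806277, *Elovl2* (ENSMUSG00000021364) chr13:41182381-41220405 and *Elovl7* (ENSMUSG00000021696) chr13:108214404-108285683. Exons of 3 members overlap a gene on the other strand, and whether counting used strand was not given in the sources used here. *Elovl1* shares 53 exon bases with *Cdc20*, *Elovl3* 10 bases with *Pitx3* and *Elovl6* 34 bases with *Gm35986*. These neighbours had mean counts of 92, 15.7 and 0.667 per library against 991, 547 and 815 for the members.

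Depth ran from 18823619 to 20324286 counts in WT, 16950175 to 18182526 in TA and 16553324 to 18357864 in TD, and 15117 genes had enough counts to be tested. The adipocyte label was checked against 8 markers, all of which were present in every library. Their summed level, in normalised counts scaled to a common library size (CPM), was 20665 to 23089 in WT, 19410 to 25287 in TA and 14296 to 16163 in TD, with *Fabp4* the most abundant. All TD libraries therefore lay below all WT and TA libraries, and 6 of the 8 markers were lower in TD than in WT by the test used throughout (edgeR's quasi-likelihood test, adjusted p under 0.05). Markers of other cells were also present. Summed markers of preadipocytes and fibroblasts, led by *Col3a1*, ran from 9134 to 12416 CPM in WT, 10331 to 18535 in TA and 15654 to 23681 in TD, with 7 of 8 tested higher in TD than in WT and 5 of 8 higher in TA. Summed markers of skeletal muscle, led by *Myh1*, ran from 1.44 to 7.11 CPM in WT, 12.9 to 62.6 in TA and 13 to 231 in TD, with 8 of 8 and 6 of 8 higher. Endothelial markers, led by *Pecam1*, ran from 23.7 to 50.6 CPM in WT, 45.2 to 79.7 in TA and 92.2 to 117 in TD, with 5 of 5 and 3 of 5 higher. Macrophage markers, led by *Lyz2*, ran from 249 to 703 CPM in WT, 120 to 511 in TA and 519 to 713 in TD. By edgeR and by DESeq2 0 of 6 differed from WT in either mutant, while at an unadjusted p under 0.05 the edgeR fit had 0 of 6 different in TD and 4 of 6 lower in TA. In TD against TA 2 of 6 were called higher by edgeR and 1 by DESeq2, 6 of 6 were higher at an unadjusted p under 0.05, and the summed levels did not overlap. Epithelial markers, led by *Krt18*, stayed under 5 CPM in sum, and 2 of 2 tested were higher in TD than in WT. These 2, *Krt8* at 0.149 and *Krt18* at 0.135 CPM in WT, had enough counts to be tested only through the mutants. Their calls were thus partly set by the filter on counts. Markers at 0 counts in all libraries of a genotype were *Dlk1* of preadipocytes in WT and TD, *Myog* of muscle in WT and *Epcam* of epithelium in WT. *Myog*, among the 8 muscle markers, thus had enough counts to be tested only through the mutants. The same held for *Ckm*, *Actn2*, *Myh3*, *Tnnt3* and *Mylpf*, with WT means of 0.0649, 0.0658, 0.119, 0.446 and 0.508 CPM. For these muscle genes, being called higher than WT was partly set by the filter on counts. In such bulk samples, fewer adipocytes and less RNA of a gene per adipocyte cannot be told apart, and the part of these cell types in the results that follow was not tested beyond the scaling to adipocyte markers given below.

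In TD adipocytes *Elovl3* was lower and *Elovl6* higher than in WT, while in TA adipocytes both were higher. *Elovl5*, the most abundant member, was lower in TD by CPM but not relative to adipocyte markers. *Elovl1* was higher in TD by 0.21 on the log2 scale by CPM. Relative to adipocyte markers *Elovl1* was higher by 0.71, a value that the lower markers of TD themselves raise. *Elovl4* differed in no comparison, and *Elovl2* and *Elovl7* were close to absence. Of the 5 members with enough counts, TD differed from WT in 4, with 2 members up beside 15.1% of all genes tested and 2 down beside 14.2%. For TA against WT 2 of 5 were up, beside 6.72% of all genes, and 0 of 5 down, beside 4.41%. Between the mutants 0 of 5 were up in TD relative to TA, beside 7.33% of all genes, and 2 of 5 down, beside 9.37%. Both counts of 0 were also 0 by DESeq2 and at an unadjusted p under 0.05 in the edgeR fit. The libraries of the genotypes compared did not overlap for 4 of 5 members between TD and WT, 1 of 5 between TA and WT and 3 of 5 between TD and TA, where the shares over all genes were 32.2%, 13.6% and 19.9%. The low-count filter was met by 5 of the 7, and counts over 5 genes describe these genes only.

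**Figure D1:**
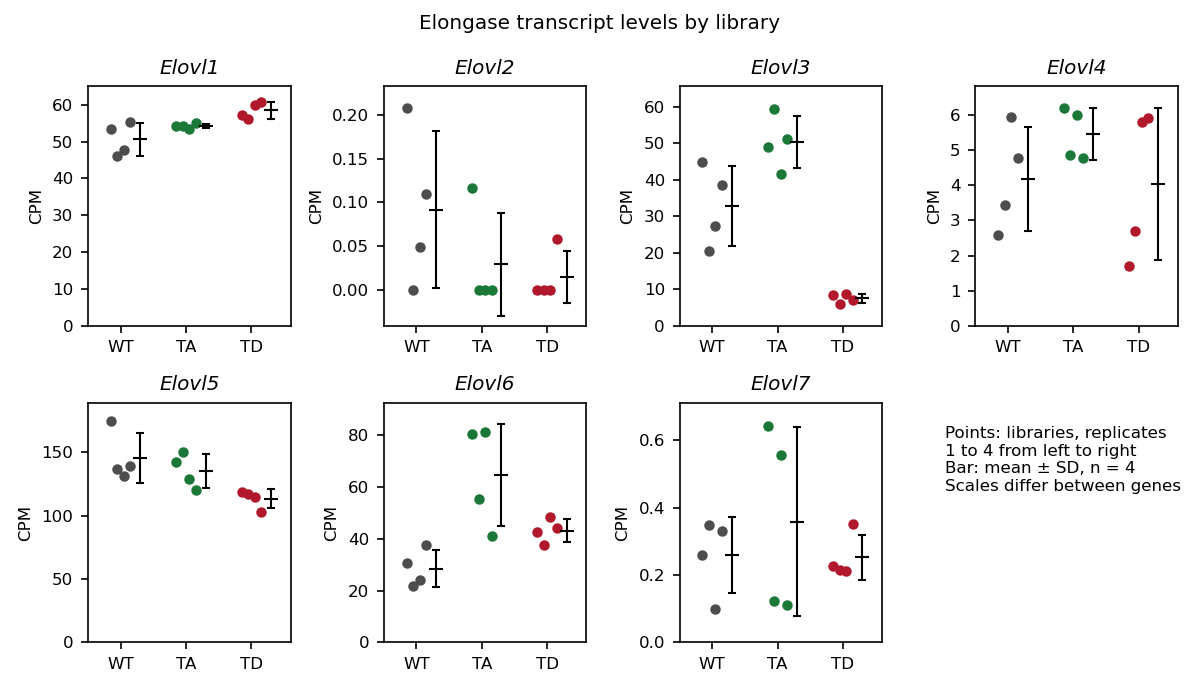
Normalised level of each elongase in CPM (vertical axis, scale differing between genes) in the 4 libraries of WT, TA and TD, replicates 1 to 4 from left to right, with mean ± SD beside them. The TD libraries of *Elovl3*, at 5.87 to 8.62 CPM, lie below every WT and TA library, and the TA libraries of *Elovl6*, at 41.2 to 81.2 CPM, lie above every WT library.

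*Elovl3* showed the greatest difference of the family. The WT libraries had 45, 20.6, 27.3 and 38.7 CPM in replicates 1 to 4. The TA libraries had 49.1, 59.3, 41.7 and 51.3 CPM. The TD libraries had 8.52, 5.87, 8.62 and 7.04 CPM, which put all 4 far below the lowest WT library, whereas TA and WT overlapped through TA replicate 3 and WT replicate 1. In read counts the TD libraries held 109 to 162, so the low level rests on more than a handful of reads. *Elovl3* was 4.38-fold lower in TD than in WT (log2 fold change -2.13 ± 0.21 (SE, n = 4 and 4), 95% interval -2.57 to -1.69, adjusted p = 2.92e-05 by edgeR). It was 6.7-fold lower in TD than in TA (log2 fold change -2.74 ± 0.21 (SE), interval -3.19 to -2.30, edgeR adjusted p = 6.73e-07). Of the 15117 genes tested, 12 fell further than *Elovl3* from WT to TD and 9 from TA to TD. In TA the mean was 1.53-fold higher than in WT (log2 fold change 0.61 ± 0.19 (SE), interval 0.22 to 1.01, edgeR adjusted p = 0.0428). That call was close to the threshold and was lost without WT replicate 2 (0.44, adjusted p = 0.0929), WT replicate 3 (0.53, 0.123), TA replicate 1 (0.62, 0.0825), TA replicate 2 (0.52, 0.0947) or TA replicate 4 (0.60, 0.0857), and also without TD replicate 3 (0.61, 0.0526) or TD replicate 4 (0.61, 0.0517), which enter the shared estimate of the spread.

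*Elovl6* moved the same way in both mutants relative to WT. The WT libraries had 30.7, 21.7, 24 and 37.5 CPM. The TA libraries had 80.5, 55.2, 81.2 and 41.2 CPM, with replicates 1 and 3 about level with each other and well above replicates 2 and 4. The TD libraries had 42.5, 37.6, 48.5 and 44.1 CPM and were closer together, the lowest of them barely above the highest WT library. *Elovl6* was 2.27-fold higher in TA than in WT (log2 fold change 1.18 ± 0.19 (SE, n = 4 and 4), interval 0.77 to 1.59, edgeR adjusted p = 0.000816). It was 1.52-fold higher in TD than in WT (0.60 ± 0.19, interval 0.19 to 1.02, edgeR adjusted p = 0.0285). The TD call was lost without WT replicate 2 (0.49, adjusted p = 0.0812), WT replicate 3 (0.53, 0.0774), TD replicate 3 (0.54, 0.0807) or TD replicate 4 (0.59, 0.0628). Compared directly, TD was 1.49-fold lower than TA (-0.58 ± 0.19, interval -0.98 to -0.18, edgeR adjusted p = 0.0473), although the TD replicates 1, 3 and 4 lay above TA replicate 4. This direct difference was at the edge of the threshold and was lost when any 1 of 9 libraries was left out, namely TA replicate 1 (-0.45, adjusted p = 0.151), TA replicate 3 (-0.45, 0.103), TA replicate 2 (-0.64, 0.0555), TD replicates 1 to 4 (-0.57, -0.52, -0.64 and -0.59, adjusted p from 0.0656 to 0.118), WT replicate 1 (-0.57, 0.0592) or WT replicate 3 (-0.57, 0.055).

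*Elovl5*, which lengthens polyunsaturated chains, had 175, 137, 131 and 139 CPM in WT, 142, 150, 129 and 120 CPM in TA and 119, 117, 115 and 103 CPM in TD. All TD libraries lay below all WT and TA libraries, although the highest TD and lowest TA library were nearly level, and TA and WT overlapped. *Elovl5* was 1.28-fold lower in TD than in WT (log2 fold change -0.36 ± 0.095 (SE), interval -0.56 to -0.16, edgeR adjusted p = 0.00962). TD against TA missed the threshold (-0.25 ± 0.095, interval -0.45 to -0.052, edgeR adjusted p = 0.0777) and passed it without WT replicate 1 (-0.25, 0.0391), the library highest in *Elovl5*. TA against WT gave -0.11 ± 0.094 (interval -0.31 to 0.094, edgeR adjusted p = 0.542).

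*Elovl1*, which acts on saturated and monounsaturated very long chains, was the steadiest member. The WT libraries had 53.4, 46.1, 47.7 and 55.3 CPM, the TA libraries 54.2, 54.1, 53.5 and 55.1 CPM and the TD libraries 57.1, 56, 60 and 60.6 CPM. All TD libraries lay above all others, by less than 1 CPM for the lowest TD library over the highest WT library. The rise in TD against WT was 1.15-fold (log2 fold change 0.21 ± 0.07 (SE), interval 0.057 to 0.35, edgeR adjusted p = 0.0375), and over all genes 55.3% had a larger absolute change. The call was lost without WT replicate 2 (0.16, adjusted p = 0.11), WT replicate 3 (0.18, 0.096), TD replicate 1 (0.22, 0.0546), TD replicate 3 (0.19, 0.0993) or TD replicate 4 (0.19, 0.103), and also with no filter on low counts (0.20, 0.136). TA against WT gave 0.098 (interval -0.051 to 0.25, adjusted p = 0.428) and TD against TA 0.11 (interval -0.042 to 0.26, adjusted p = 0.32).

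*Elovl4*, the enzyme of ultra-long chains, was low and scattered. The WT libraries had 2.59, 3.43, 5.95 and 4.77 CPM, the TA libraries 6.2, 4.86, 6.01 and 4.78 CPM and the TD libraries 1.7, 2.69, 5.8 and 5.92 CPM, so that the range of TD held 5 of the other 8. TD against WT gave a log2 fold change of -0.055 ± 0.33 (SE, interval -0.75 to 0.64, edgeR adjusted p = 0.924), TA against WT 0.38 ± 0.32 (interval -0.30 to 1.07, 0.515) and TD against TA -0.44 ± 0.33 (interval -1.13 to 0.25, 0.386). The sign of the TD value against WT turned without any of WT replicates 3 and 4 and TD replicates 1 and 2 (0.17, 0.011, 0.20 and 0.097). With 30 to 120 counts per library, a rise in TD over WT as large as that of *Elovl6* lies within the interval.

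*Elovl2* and *Elovl7* were not tested in the fit across genes. *Elovl2* had 4, 0, 1 and 2 counts in WT, 2, 0, 0 and 0 in TA and 0, 0, 0 and 1 in TD, and 11 of the 12 libraries were at or under 3 counts. By counting error alone, a library may show 0 for a gene whose expected count is as high as 3. A floor of 3 counts corresponds to 0.154 CPM in WT, 0.173 in TA and 0.167 in TD. *Elovl7* had 5, 7, 2 and 6 counts in WT, 11, 2, 10 and 2 in TA and 4, 4, 4 and 6 in TD. The genotypes overlapped for both genes. An exact two-sided permutation test of CPM, 4 libraries against 4, whose smallest p is 0.0286, gave p of 0.257, 0.371 and 1 for *Elovl2* and 0.914, 0.457 and 0.486 for *Elovl7* in TD against WT, TA against WT and TD against TA (6 tests, unadjusted). Differences in these genes were not detectable at this depth, and these floors cover counting error only.

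**Figure D2:**
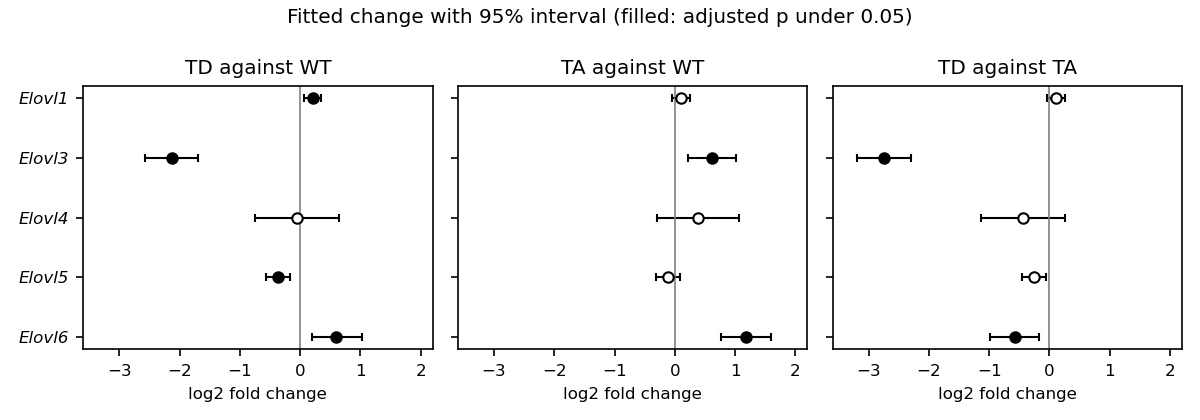
Fitted log2 fold change (horizontal axis) with its 95% interval for the 5 elongases tested, in TD against WT, TA against WT and TD against TA, with filled points where the adjusted p was under 0.05. *Elovl3* lies at -2.13, 0.61 and -2.74, *Elovl6* at 0.60, 1.18 and -0.58, and the other members lie within 0.5 of 0.

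To compare the members with each other, CPM were divided by the kilobases of the joined exons of each gene. In WT *Elovl5* was highest at 41.3 CPM per kilobase (range 37.1 to 49.6), followed by *Elovl1* at 18.6 (16.9 to 20.3) and *Elovl3* at 16.7 (10.4 to 22.8), whose ranges overlapped, then *Elovl6* at 4.43 (3.37 to 5.84) and *Elovl4* at 1.38 (0.857 to 1.97). *Elovl7* at 0.0645 and *Elovl2* at 0.0231 CPM per kilobase closed the order and overlapped. In TA the order was *Elovl5* at 38.4 (34.2 to 42.5), *Elovl3* at 25.5 (21.1 to 30), *Elovl1* at 19.9 (19.6 to 20.2), *Elovl6* at 10 (6.41 to 12.6) and *Elovl4* at 1.81 (1.58 to 2.05), and no neighbours among these 5 overlapped. In TD it was *Elovl5* at 32.2 (29.2 to 33.8), *Elovl1* at 21.4 (20.5 to 22.2), *Elovl6* at 6.71 (5.84 to 7.55), *Elovl3* at 3.8 (2.97 to 4.37) and *Elovl4* at 1.33 (0.563 to 1.96), again with no overlap between neighbours. So *Elovl3* stood above *Elovl6* in every WT and TA library and below it in every TD library. With the longest annotated transcript as the length, *Elovl1* at 29.9 stood above *Elovl3* at 26.8 CPM per kilobase in TA, and the other positions were kept.

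The summed level of the 7 genes was 82.5 ± 12.3 CPM per kilobase in WT (SD, n = 4, range 71 to 97.7), 95.7 ± 6.59 in TA (88.4 to 103) and 65.6 ± 2.42 in TD (63.4 to 68.7). By this measure TD thus lay below both other genotypes without overlap, and TA and WT overlapped. The sum was not scaled to the adipocyte markers, which were also lower in TD. *Elovl3* made up 19.8% of this sum in WT, 26.6% in TA and 5.78% in TD, and *Elovl6* 5.34%, 10.5% and 10.2%. *Elovl1* made up 22.7%, 20.9% and 32.7% and *Elovl5* 50.3%, 40.1% and 49.2%, so nearly all of the sum in TD came from these 2 and *Elovl6*. The ratio of *Elovl6* to *Elovl3*, which is free of library size, was 0.275 ± 0.0491 in WT (range 0.209 to 0.323), 0.408 ± 0.169 in TA (0.247 to 0.597) and 1.79 ± 0.2 in TD (1.53 to 1.96). The ratio in TD lay above every WT and TA library, and no test was made of these shares and ratios, which restate the levels above.

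**Figure D3:**
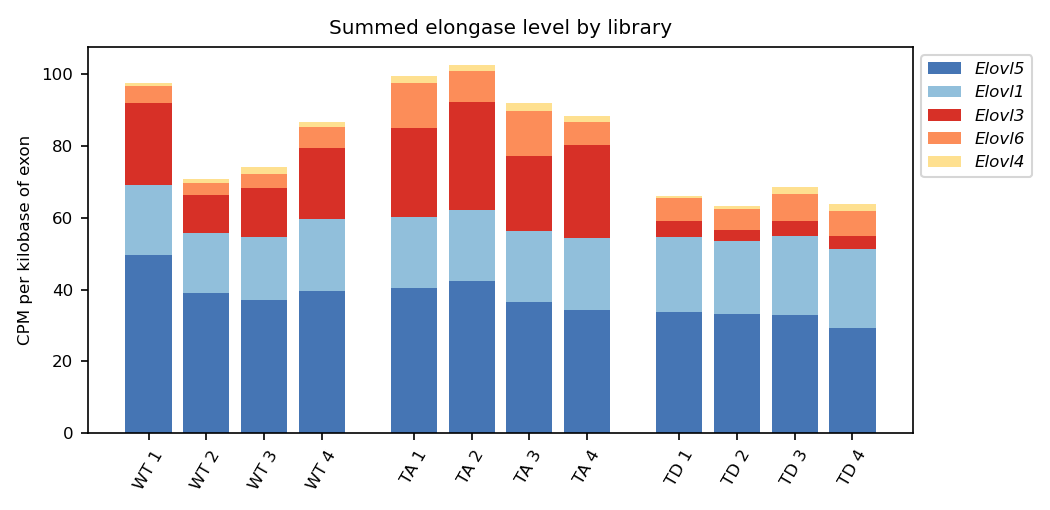
Summed level of the elongases in CPM per kilobase of exon (vertical axis, from 0) in each of the 12 libraries, with each bar divided by gene, and with *Elovl2* and *Elovl7* left out because they are too low to be seen. TD libraries sum to 63.4 to 68.7 and have the thinnest *Elovl3* layer, and TA libraries sum to 88.4 to 103.

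Because summed adipocyte markers were lower in TD, each member was also expressed per 1000 CPM of the 8 adipocyte markers, a scaling added after the comparisons had been seen. Mean summed markers were 21915 CPM in WT, 22482 in TA and 15459 in TD. Adipocyte markers may themselves depend on PPARγ, and less marker RNA per adipocyte would raise every scaled value in TD. Whether the scaling follows adipocyte number was not tested. *Elovl3* was 1.49 ± 0.426 on this scale in WT (SD, n = 4), 2.24 ± 0.0932 in TA and 0.487 ± 0.0868 in TD, and its 3 genotypes did not overlap (log2 differences -1.58 for TD against WT, 0.64 for TA against WT and -2.22 for TD against TA, each with an exact permutation p = 0.0286, the smallest it can give). *Elovl6* was 1.29 ± 0.264 in WT, 2.96 ± 1.18 in TA and 2.81 ± 0.398 in TD. It was 1.13 higher on the log2 scale in each mutant than in WT (exact permutation p = 0.0286 for each), and the difference between the mutants was gone (0.0044, exact permutation p = 1). *Elovl5* turned direction, at 6.63 ± 0.65 in WT, 6.06 ± 0.731 in TA and 7.34 ± 0.167 in TD. Its log2 difference was 0.15 in TD against WT (exact permutation p = 0.143), -0.13 in TA against WT (p = 0.371) and 0.28 in TD against TA (p = 0.0286). *Elovl1* was 2.31 ± 0.0942 in WT, 2.43 ± 0.265 in TA and 3.79 ± 0.358 in TD, 0.71 and 0.64 higher in TD on the log2 scale than in WT and TA (exact permutation p = 0.0286 for each) and 0.071 higher in TA than in WT (p = 0.429). *Elovl4* gave 0.33, 0.41 and -0.079 in the same order of comparisons (exact permutation p = 0.571, 0.286 and 0.943). These 15 tests are unadjusted. The summed markers of every TD library lay below those of every WT and TA library, which raises each member in TD on this scale. A member that is steady in CPM, such as *Elovl1*, is then set apart by its denominator. The p-values for a rise in TD on this scale are therefore no separate support for a change in the member. The directions of *Elovl3*, lower, and of *Elovl6* and *Elovl1*, higher, in TD than in WT were thus the same on both scales, with a larger difference for *Elovl1* and *Elovl6* on the marker scale, whereas the direction for *Elovl5* depended on the scale.

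**Figure D4:**
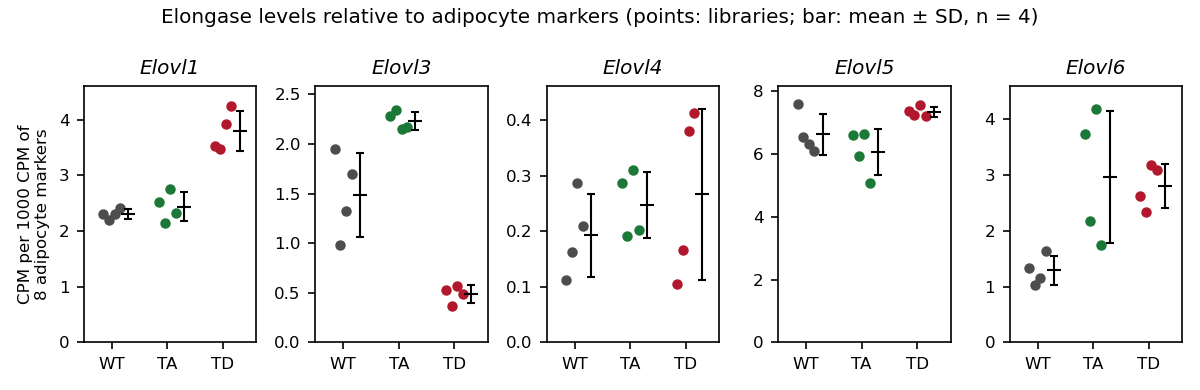
Level of the 5 elongases tested in CPM per 1000 CPM of 8 adipocyte markers (vertical axis, from 0) in the 4 libraries of each genotype, replicates 1 to 4 from left to right, with mean ± SD. *Elovl3* separates the 3 genotypes, *Elovl6* is higher in both mutants than in WT, and *Elovl5* is not lower in TD.

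Each elongation cycle needs partners that finish what the elongase begins. Of 7 such genes 6 were tested, and *Tecrl* had 0 to 1 counts per library. *Hacd2*, a dehydratase of the cycle, was lower in TD than in WT (212 ± 19.9 against 305 ± 29.4 CPM, log2 fold change -0.52, edgeR adjusted p = 0.00133). *Hsd17b12*, the ketoacyl-CoA reductase, was higher in TA than in WT (320 ± 37.3 against 246 ± 13.7 CPM, 0.38, adjusted p = 0.00588) and gave -0.22 in TD against WT (adjusted p = 0.0572). Between the mutants *Hacd2* (-0.73, adjusted p = 0.000208), *Hsd17b12* (-0.60, 0.000177) and *Tecr*, the enoyl-CoA reductase (-0.22, 0.037), were lower in TD. The dehydratases *Hacd1*, *Hacd3* and *Hacd4* were called in no comparison, with log2 fold changes from -0.21 to 0.38, and by DESeq2 3 of the 6 partners were lower in TD than in WT. The list thus had 1 of 6 genes down between TD and WT, beside 14.2% of all genes, which is near that share. It had 1 of 6 up between TA and WT, beside 6.72%, and 3 of 6 down between TD and TA, beside 9.37%. The median log2 fold changes were -0.19, 0.16 and -0.19 beside 0.011, -0.0056 and 0.023 over all genes tested.

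Malonyl-CoA and palmitate are the substrates of elongation. The list of their supply holds genes around their synthesis, among them *Oxsm* and *Mcat* of mitochondrial fatty acid synthesis, and *Mlycd*, which breaks malonyl-CoA down. Of 9 tested, TA had 5 up and 1 down relative to WT (median log2 fold change 0.65), beside 6.72% and 4.41% of all genes. TD had 1 up and 5 down relative to WT (median -0.27), beside 15.1% and 14.2%. Relative to TA, TD had 0 up and 6 down (median -0.75), beside 7.33% and 9.37%. The 5 lower in TD than in WT were *Acacb*, *Mlycd*, *Slc25a1*, *Oxsm* and *Mcat*. *Acaca* (0.11, edgeR adjusted p = 0.53), *Fasn* (-0.25, 0.15) and *Me1* (0.032, 0.849) were not called there. *Acly*, which makes cytosolic acetyl-CoA from citrate, rose in both mutants on the log2 scale, by 1.63 in TA (3270 ± 637 against 1057 ± 72.3 CPM, edgeR adjusted p = 3.41e-07) and by 0.72 in TD (1742 ± 132 CPM, adjusted p = 0.000469). *Acacb*, the mitochondrial acetyl-CoA carboxylase, fell in both, by 0.61 in TA (adjusted p = 0.00665) and by 0.93 in TD (adjusted p = 0.000193) on the log2 scale. *Slc25a1*, the mitochondrial citrate carrier, had the largest difference between the mutants (-1.10 in TD against TA, adjusted p = 3.06e-07).

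Desaturases act on the same chains before or after elongation. Of 8 tested, TD had 1 up and 4 down relative to WT (median -0.22), beside 15.1% and 14.2% of all genes. TA had 3 up and 1 down relative to WT (median 0.031), beside 6.72% and 4.41%. Relative to TA, TD had 1 up and 4 down (median -0.34), beside 7.33% and 9.37%. *Scd3*, a stearoyl-CoA desaturase, fell in TD by 2.04 against WT (3.32 ± 0.666 against 13.6 ± 4.44 CPM, edgeR adjusted p = 8.93e-05) and by 1.91 against TA (adjusted p = 0.000149) on the log2 scale. Near-identical *Scd* genes may share reads, and *Scd3* stands beside *Scd1* at 60032 CPM in WT, so its value is uncertain. *Scd1* was lower than in WT in TA (-0.41, adjusted p = 0.0306) and in TD (38777 ± 1984 against 60032 ± 3157 CPM, -0.63, 0.000953). *Scd2* was lower in TD than in WT (-0.32, adjusted p = 0.02). *Fads2*, which desaturates the chains that *Elovl5* lengthens, rose in TA against WT (0.60, adjusted p = 0.000195). In TD it was lower than in WT (-0.28, adjusted p = 0.0204) and TA (-0.87, 6.52e-06). *Fads6* was higher in TD than in WT and TA (0.58, adjusted p = 0.00685, and 0.55, 0.0159).

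**Figure D5:**
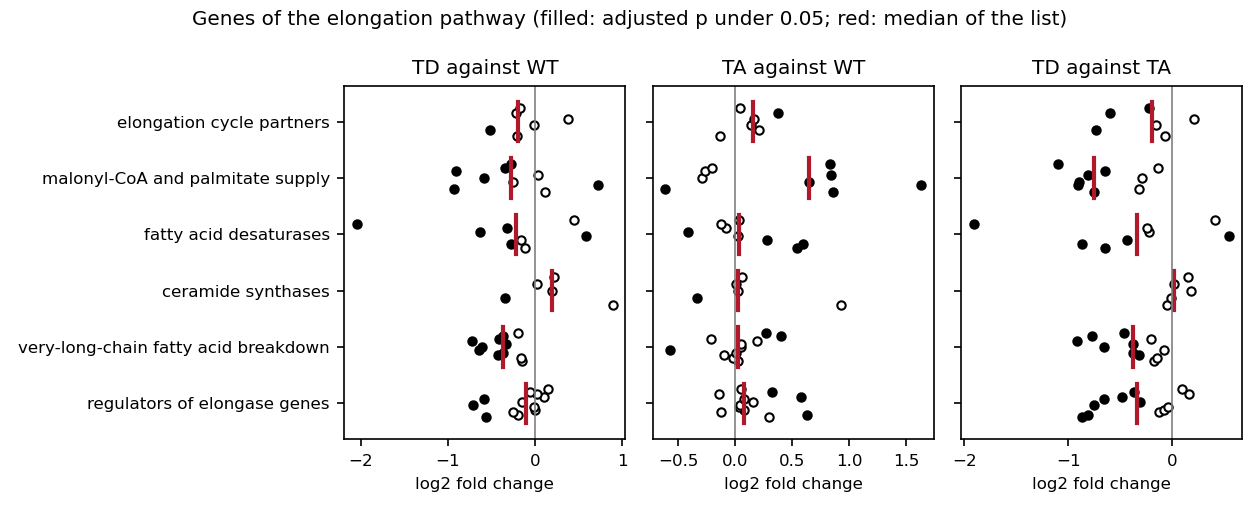
Log2 fold change (horizontal axis, scale differing between panels) of each tested gene in 6 lists around elongation, in TD against WT, TA against WT and TD against TA, with filled points where the adjusted p was under 0.05 and a red bar at the median of the list. The median of malonyl-CoA and palmitate supply is -0.27, 0.65 and -0.75, and that of very-long-chain fatty acid breakdown is -0.37, 0.024 and -0.38.

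Products of elongation are built into ceramides or broken down in peroxisomes. Of 6 ceramide synthases 5 were tested, and *Cers2*, which uses very-long-chain acyl-CoA, was the only one called, lower in TD (-0.34, edgeR adjusted p = 0.00101) and in TA (-0.33, 0.00266) than in WT, with no call between the mutants. The list medians were 0.20, 0.023 and 0.021. *Cers2* was 1 of 5, beside 14.2% of all genes lower in TD and 4.41% in TA. Of 12 genes of very-long-chain fatty acid breakdown 11 were tested. TD had 8 down relative to WT and 7 relative to TA (medians -0.37 and -0.38), beside 14.2% and 9.37% of all genes. In both 0 were up, beside 15.1% and 7.33%. The 8 adipocyte markers had medians of -0.38 and -0.46 in the same comparisons, so the breakdown list fell no further than they did. TA had 2 up and 1 down relative to WT (median 0.024), beside 6.72% and 4.41%. *Ehhadh*, the bifunctional enzyme of peroxisomal oxidation, was lowest in TD (-0.72 against WT, adjusted p = 0.000301, and -0.92 against TA, 6.43e-05). *Scp2*, the peroxisomal thiolase and sterol carrier, rose in TA (0.40, adjusted p = 0.00486), and *Acaa1b*, another thiolase, fell there by 0.57 on the log2 scale (adjusted p = 0.0183).

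Among 12 genes of regulators known to act on elongase genes, all tested, those called against WT were lower in TD and higher in TA. In TD 3 were lower than in WT, *Ppara* (-0.71, edgeR adjusted p = 0.00678), *Pparg* itself (237 ± 24.2 against 354 ± 19.9 CPM, -0.58, 0.000429) and *Insig1*, a sterol-sensing brake on SREBP (-0.56, 0.0091). In TA 3 were higher than in WT, *Insig2*, the related brake (0.63, 6.88e-05), *Rxra*, the partner of PPARs (0.58, 4.31e-05), and *Srebf1*, which encodes SREBP-1 (0.32, 0.0216). In TD against TA 7 were lower, *Insig1* (-0.87), *Insig2* (-0.81), *Ppara* (-0.75), *Pparg* (-0.66), *Rxra* (-0.48), *Srebf1* (-0.37) and *Ppard* (-0.31), with adjusted p from 6.52e-06 to 0.0376. *Srebf2*, *Scap*, *Mlxipl*, which encodes ChREBP, and the LXR genes *Nr1h2* and *Nr1h3* were called in no comparison. *Srebf1* itself was 528 ± 7.69 CPM in TD and 549 ± 44.7 in WT (-0.055, adjusted p = 0.668), beside the higher *Elovl6* in TD. The medians of the list were -0.10, 0.077 and -0.34. Over all genes 14.2% were lower in TD than in WT, 6.72% higher in TA than in WT and 9.37% lower in TD than in TA. Those shares stand beside 3, 3 and 7 of these 12.

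RefSeq promoter windows of 300 bases, 250 before to 50 after a start, were found for 6 members, the exception being *Elovl3*. They were scanned on both strands for the nuclear receptor half-site AGGTCA, for its direct repeats spaced by 1 base (DR1, the PPAR:RXR element) or 4 bases (DR4, the LXR:RXR element), each of which contains the half-site, and for the E-box CACGTG. Over 32851 RefSeq promoters, 16.3% held a half-site, 0.0396% a DR1, 0.0152% a DR4 and 7.15% an E-box. No member window held a DR1 or DR4 in exactly these letters, which says nothing of the factors. The half-site was found in *Elovl6*, 193 bases upstream of the start on the minus strand, and in the second window of *Elovl1*, 95 bases upstream. The E-box was found in *Elovl5*, 161 bases upstream, and in *Elovl4*, 5 bases downstream. The windows of *Elovl6*, higher in both mutants, and *Elovl5*, lower in TD by CPM, are shown 5′ to 3′ on the plus strand of GRCm38.p6, with the half-site (as its reverse complement) and the E-box in capitals, at chr3:129532136-129532435 and chr9:77917115-77917414.
Elovl6: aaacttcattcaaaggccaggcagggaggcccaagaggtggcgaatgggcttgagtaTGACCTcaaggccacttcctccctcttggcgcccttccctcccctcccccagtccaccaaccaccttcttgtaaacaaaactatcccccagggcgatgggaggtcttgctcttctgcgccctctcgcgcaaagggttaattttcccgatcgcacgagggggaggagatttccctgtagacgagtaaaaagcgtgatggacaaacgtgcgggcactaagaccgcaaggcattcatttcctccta
Elovl5: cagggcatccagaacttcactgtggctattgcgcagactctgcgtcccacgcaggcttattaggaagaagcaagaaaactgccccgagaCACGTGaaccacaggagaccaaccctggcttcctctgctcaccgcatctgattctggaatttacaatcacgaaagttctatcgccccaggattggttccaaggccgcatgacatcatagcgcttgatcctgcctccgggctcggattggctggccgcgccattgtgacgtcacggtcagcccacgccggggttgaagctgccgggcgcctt

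The genes whose log2 CPM followed each member most closely across the 12 libraries were sought among 10545 genes whose mean reached 5 CPM. The points are libraries of 3 genotypes, which differ in several of these genes, so the values describe likeness only. For *Elovl3* they were *Slc25a20*, the mitochondrial carnitine carrier (Pearson r = 0.978, Spearman rho = 0.881), and *Atp5g3*, a subunit of ATP synthase (0.973, 0.937). *Slc25a20* had means of 86.4, 90.9 and 53.9 CPM in WT, TA and TD. For *Elovl6* they were *Sqle*, the squalene epoxidase of sterol synthesis (0.962, 0.951), at 66.6, 83.5 and 77.2 CPM, and the septin gene *Sept9* (0.936, 0.965), whose symbol had been turned into a date in the deposited table and was matched by its identifier. For *Elovl5* they were *Rhoa*, a small GTPase (0.966, 0.958), and *Dad1*, a subunit of oligosaccharyltransferase (0.958, 0.986). For *Elovl1* they were *Nono*, an RNA-binding protein of the nucleus (0.910, 0.713), and *Rpn1*, another subunit of oligosaccharyltransferase (0.908, 0.762). For *Elovl4* they were *Zfp106* (0.903, 0.867) and *Zkscan1* (0.826, 0.692), both zinc finger genes.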

How the data were processed

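RNA of SVF-differentiated adipocytes was analysed for WT, TA and TD, 4 libraries each, grouped by the labels. The authors deposited raw read counts per gene for 55573 genes, as 1 table and as 12 library files that were equal to it, with no column of another series. The submitters' processing notes name bcl2fastq 2.17.1.14, cutadapt 1.9.1, HISAT2 2.0.1, HTSeq 0.6.1 and GRCm38, and the strand setting was not given in the sources used here. Reads that map to several places are usually dropped in such counting, which lowers genes with close copies. The labels give dexamethasone in mM and the methods in µM.

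Genes were kept by filterByExpr of edgeR 4.0.16 (minimum count 10, minimum total 15, 15117 genes), normalised by TMM (factors 0.957 to 1.04) and fitted to all 12 libraries by a quasi-likelihood model with genotype alone, two-sided, with Benjamini-Hochberg adjustment over all genes tested and a threshold of 0.05. R 4.3.3, limma 3.58.1, DESeq2 1.42.0, Python 3.11.15, scipy 1.17.1 and matplotlib 3.10.9 were used. CPM are counts scaled to a common library size after TMM. Exon lengths and positions came from GENCODE M21 (99.8% of identifiers found), promoters from RefSeq. The 18 pairs of replicates differed beyond sampling noise (chi-square per degree of freedom 4.95 to 38.7), and the common biological coefficient of variation was 12.9%. The fit was tested on simulated data. Alternatives were other size factors, filters, DESeq2, 2 genotypes alone, a replicate block, each library left out, a fold threshold and another gene length.

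The elongases and all lists were chosen with earlier results of these data known. All elongases, partners and regulators are named, and in each other list the largest called rise and fall. Further genes of the supply and desaturase lists are named for TD against WT, and *Fads2* also for TD against TA. Comparisons share libraries, so no overlap between them is given. Proteins are compared from translated GENCODE coding sequences, by script.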

Additional observations from a re-analysis of the deposited data

Results flagged for a closer look

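In groups of 4 libraries, a library was set apart when its gap to the nearest other took up more of the range than Dixon's 95% critical value. Of 45 groups looked at, 4 had such a library, and chance gives about 1 in 20. *Elovl2* in TA replicate 1, at 0.117 CPM, and in TD replicate 4, at 0.0586 CPM, stood apart only because the other 3 libraries were at 0. *Elovl7* in TD replicate 4 was 0.352 CPM, where the others were 0.213 to 0.227. The summed epithelial markers of WT replicate 4 were 2.25 CPM, where the other WT libraries were 0.0496 to 0.208. None of the 5 elongases tested was set apart in any genotype.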

How the results depend on the processing

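Over 19 alternatives for each of 5 elongases in 3 comparisons (285 values), 249 kept direction and side of the threshold, 29 fell short of it, 2 newly passed it and 5 turned direction. *Elovl3* and *Elovl5* in TD against WT, *Elovl3* in TD against TA and *Elovl6* in TA against WT kept their calls in all 19. The other *Elovl6*, *Elovl3* and *Elovl1* calls did not, the adjusted p reaching 0.151. With no filter on low counts, *Elovl1* in TD against WT lost its call (adjusted p = 0.136), which left 3 calls there. The 5 that turned were all *Elovl4* in TD against WT (0.01 with library totals alone, -0.29 to 0.20 over single libraries left out, where 0.17, 0.011, 0.20 and 0.097 were above 0). Scaled to adipocyte markers, *Elovl4* (0.33) and *Elovl5* (0.15) in TD against WT and *Elovl5* (0.28) and *Elovl6* (0.0044) in TD against TA turned direction. Of 5 elongases, 4, 2 and 2 were called in TD against WT, TA against WT and TD against TA. Requiring an absolute log2 fold change above 1 left 1 in each. Leaving out single libraries gave 2 to 4, 1 to 2 and 1 to 2 calls. Fitting only the 2 genotypes compared gave 1 in TA against WT, and library totals alone gave 1 in TD against TA, where they also moved the share of higher calls over all genes from 43.9% to 64.7% (51.5% to 64.6% in TD against WT) and the median of all genes to 0.10. The longest transcript as the length moved 2 places in the order of levels. Same-numbered libraries deviated with correlations of -0.24 to 0.20, 2 of 12 over 0.1, beside 4 of 36 for libraries of different numbers. These correlations showed no pairing by number, and a shared day, litter or batch could not be checked. A replicate block took *Elovl6* in TD against TA to -0.56 (adjusted p = 0.0509) and *Elovl5* to -0.25 (0.0486), and over all genes gave 4246, 1560 and 2488 calls in place of 4418, 1683 and 2524. The cause of these changes was not tested. Depth limits *Elovl2* and *Elovl7*, at 0 to 11 counts per library.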

Other observations

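*Elovl3* is counted among the genes of brown and beige fat, and 9 other genes of that kind were looked at beside it. *Ucp1*, the uncoupling protein that defines thermogenic fat, had 0 to 5 counts per library and *Cidea*, a lipid droplet protein of brown fat, 0 to 16, too few to be tested. Of the 7 tested, TD had 0 up and 3 down relative to WT by edgeR (median log2 fold change -0.29), beside 15.1% and 14.2% of all genes. DESeq2 had 1 up, and the edgeR fit had 1 up and 4 down at an unadjusted p under 0.05. The largest fall there was that of *Cox7a1*, a cytochrome oxidase subunit (-1.70, edgeR adjusted p = 0.000193), smaller than that of *Elovl3*. TA had 2 up and 2 down relative to WT (median -0.074), beside 6.72% and 4.41% of all genes. Among them were *Otop1* at 43 to 62 counts per library in TA and 0 to 1 in WT, and *Dio2*, the deiodinase that activates thyroid hormone (-1.49, adjusted p = 0.00323). *Otop1* had enough counts to be tested only through TA. In TD, *Otop1* had 0 to 8 counts. There 0 of 7 were higher than in TA, also by DESeq2 and at an unadjusted p under 0.05, beside 7.33% of all genes. In TD 4 were lower than in TA, *Otop1* among them, beside 9.37% (median -0.81). The list therefore did not move as a whole in TA, where *Elovl3* was higher.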
